A study of Rattus norvegicus with 3 samples.

Results

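Vesicle traffic genes are described here as a group of 166 named genes out of 15037 on the array. They were chosen by symbol alone, as the genes for Rab GTPases and their named partners, Arf and Arl GTPases, COPI and COPII coat subunits and other Sec proteins, p24 cargo proteins (Tmed), TRAPP subunits and Vps proteins. RNA came from FRSK cells, an established keratinocyte line of rat fetal skin. The tested cultures received 100 nM of an opioid peptide for 24 h, either Met-enkephalin (Met-ENK) or the β-endorphin fragment β-END(1-9), and the control culture was left unstimulated. All 3 cultures were of this line, no genetic change is given for any of them, and each was measured on 1 whole-transcript array. The labels state neither a vehicle nor a harvest time for the control. With 1 array per group there are no replicates and no test between groups, so each difference below compares 2 arrays and has no replicate check.

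Traffic between membrane compartments runs in steps that these families share out. Small GTPases of the Rab, Arf and Arl families switch between a GDP-bound and a GTP-bound form and, when bound to GTP, recruit coats, tethers and motors to a membrane. The COPII coat buds vesicles from the endoplasmic reticulum, COPI returns cargo from the Golgi, the p24 proteins link cargo to both coats, and the TRAPP complexes activate Rabs on the way into the Golgi. Vps proteins form the machines of the endosome, among them retromer for recycling, HOPS and CORVET for fusion and ESCRT for sorting into vesicles inside the endosome. In keratinocytes these routes carry integrins, desmosomal cadherins and matrix proteins to the surface and melanosomes taken up from melanocytes to their destination.

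The deposited values are log2 signals after RMA. This method corrects background, puts the probe signals of the arrays on a common distribution and combines probes into a value for each gene. The deposited values still differed slightly between arrays. Their medians were 5.96 for Met-ENK, 5.97 for β-END(1-9) and 5.93 for control, with standard deviations of 3.36, 3.35 and 3.415. A gene entered the counts when its mean log2 signal over the 3 arrays was at least 6.41, the median of the named genes, and 136 of the 166 traffic genes did so. Counts are of genes at least 1.5-fold apart, a log2 difference of 0.585 or more. Signals of the 23 background probe sets lay between 2.51 and 7.57, and 38 of the 166 genes stayed at or below 7.57 on all arrays, among them 8 of the 136. The median log2 signal of the 166 genes was 9.98 on the Met-ENK array, 9.93 on the β-END(1-9) array and 10.02 on the control array. Signals were exactly equal on all 3 arrays for 15 of the 166 genes (9.04%), against 15.5% of all named genes. The 7 measured basal keratinocyte markers of 11 listed all passed the filter, and Krt14 had log2 signals of 16.61, 16.63 and 16.70 on the Met-ENK, β-END(1-9) and control arrays. The other 6 markers differed from control by -0.57 (Krt15) to 0.49 (Itga6) with Met-ENK and by -0.33 (Lamb3) to 0.01 (Itga6) with β-END(1-9). The filter was passed by 1 of 5 fibroblast, 1 of 3 melanocyte, 0 of 4 endothelial and 0 of 5 immune markers (Col1a1 and Mitf were the ones that passed). Fewer cells and less RNA per cell cannot be told apart in bulk RNA of this kind.

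The genes furthest from control were a Rab-binding membrane protein and a subunit of the protein translocon, both lower with Met-ENK. Of the 136 traffic genes, 5 (3.68%) lay at least 1.5-fold below control with Met-ENK, against 6.02% of all 7519 named genes passing the filter. None was at least 1.5-fold higher (0 of 136), against 0.692% of all genes. The share of traffic genes past 1.5-fold was therefore no larger than the background in either direction, and the results below concern single genes and small complexes. With differences of any size counted, 72 of the 136 were lower, 35 higher and 29 equal (median -0.02). The lower share was 52.9% of the 136 and 45.7% of all 7519 genes, whose median was 0.00. With β-END(1-9) it was 63.2% of the 136 and 56.1% of all 7519 genes.

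Rabac1, the Rab acceptor that binds prenylated Rabs at Golgi membranes, had log2 signals of 7.66 with Met-ENK, 8.68 with β-END(1-9) and 9.35 in control. The Met-ENK array was thus 3.22-fold lower than control (-1.69) and 2.04-fold lower than β-END(1-9) (-1.03), and the β-END(1-9) array was 1.58-fold lower than control (-0.66). The Met-ENK signal lay just above the top of the background range. Sec61b, the β subunit of the Sec61 channel through which new proteins enter the endoplasmic reticulum, had 12.97, 13.72 and 14.24 on the Met-ENK, β-END(1-9) and control arrays, far above background. It was 2.41-fold lower with Met-ENK than in control (-1.27), and 1.44-fold lower with β-END(1-9) than in control (-0.52), which is below the threshold.

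The other 3 genes past 1.5-fold with Met-ENK differed less. Rab7b, a Rab of transport from endosomes to the trans-Golgi network, had 6.74 with Met-ENK, 7.52 with β-END(1-9) and 7.68 in control, so that only the control value lay above the background range. Its differences from control were -0.94 for Met-ENK and -0.16 for β-END(1-9). Rab5if, a small membrane protein named for its interaction with Rab5, had 12.19 with Met-ENK, 12.92 with β-END(1-9) and 12.86 in control, with differences of -0.66 and 0.06 from control. Rab4b, a Rab of recycling endosomes, had 7.63, 7.87 and 8.24 in the same order, with differences of -0.61 for Met-ENK and -0.37 for β-END(1-9), and the Met-ENK difference fell below 1.5-fold after quantile normalization (-0.52). Just outside the threshold on the lower side with Met-ENK were Arl1 (-0.55), Rab4a (-0.55) and Trappc5 (-0.51). On the higher side the nearest were Vps18 (0.56), Rab3gap2 (0.51) and Rab7a (0.47), and after quantile normalization Vps18 (0.64) and Rab3gap2 (0.60) passed 1.5-fold.

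**Figure D1:**
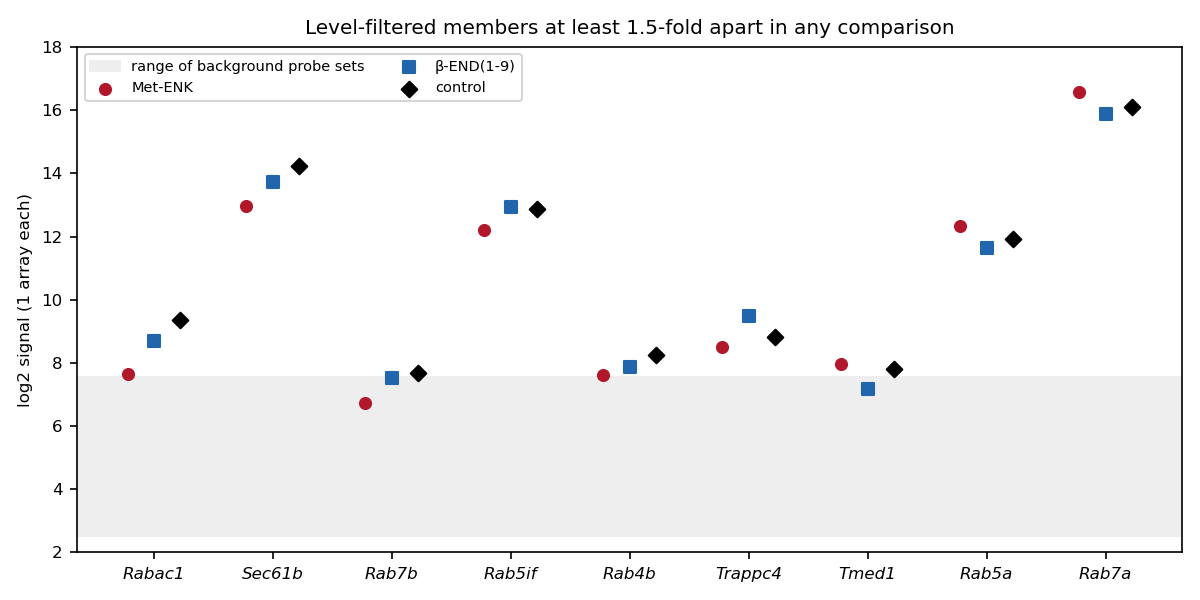
Log2 signals (vertical axis, 1 array per symbol) of the 9 traffic genes that passed the level filter and were at least 1.5-fold apart in any comparison, for Met-ENK (circles), β-END(1-9) (squares) and control (diamonds), with the range of the background probe sets shaded. Rabac1 (7.66 with Met-ENK, 9.35 in control) and Sec61b (12.97 with Met-ENK, 14.24 in control) show the widest gaps between Met-ENK and control, while for Trappc4 and Tmed1 the β-END(1-9) array is the one that stands off.

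With β-END(1-9), 2 of the 136 genes (1.47%) were at least 1.5-fold lower than control, against 2.27% of all genes, and 1 (0.735%) was at least 1.5-fold higher, against 0.559%. The lower genes were Rabac1 (-0.66, and -0.57 after quantile normalization) and Tmed1 (-0.64), a p24 cargo protein of the early secretory pathway. Tmed1 had log2 signals of 7.95 with Met-ENK, 7.16 with β-END(1-9) and 7.80 in control, so the β-END(1-9) value lay within the background range and the other values above it. The higher gene was Trappc4, a core subunit of the TRAPP complexes, with 8.52 with Met-ENK, 9.48 with β-END(1-9) and 8.82 in control. Its β-END(1-9) signal was 1.59-fold above control (0.67), whereas the Met-ENK signal lay below it (-0.30). Just outside 1.5-fold were Sec61b (-0.52), Sec24c (-0.51) and Sec13 (-0.49) on the lower side. On the higher side the next genes, Rab13 (0.32) and Arl14ep (0.30), lay well short of it.

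The peptides were given at the same dose and for the same time, and β-END(1-9) begins with the residues of Met-ENK and continues with further residues of β-endorphin. Relative to β-END(1-9), Met-ENK was at least 1.5-fold higher for 3 of the 136 genes (2.21%), against 1.89% of all genes, and at least 1.5-fold lower for 5 (3.68%), against 2.7%. The higher genes were Tmed1 (0.79) and 2 endosomal Rabs. Rab7a, the Rab of late endosomes and lysosomes, had 16.56 with Met-ENK, 15.87 with β-END(1-9) and 16.09 in control, a difference of 0.70 between the peptides. Rab5a, the Rab of early endosomes, had 12.32, 11.64 and 11.92 in that order, a difference of 0.68. The identifier of the Rab5a probe set names another chromosome than that of the RefSeq gene. Which locus gave its signal was not tested. For both Rabs Met-ENK lay above control (0.47 for Rab7a and 0.40 for Rab5a) and β-END(1-9) below it (-0.22 for Rab7a and -0.28 for Rab5a), each by less than 1.5-fold. The lower genes were Rabac1 (-1.03), Trappc4 (-0.96), Rab7b (-0.78), Sec61b (-0.75) and Rab5if (-0.73), and Rab13 was just outside the threshold (-0.58). No interval can be given for any of these differences. The 3 comparisons share arrays, so each gene's differences are not independent of one another.

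**Figure D2:**
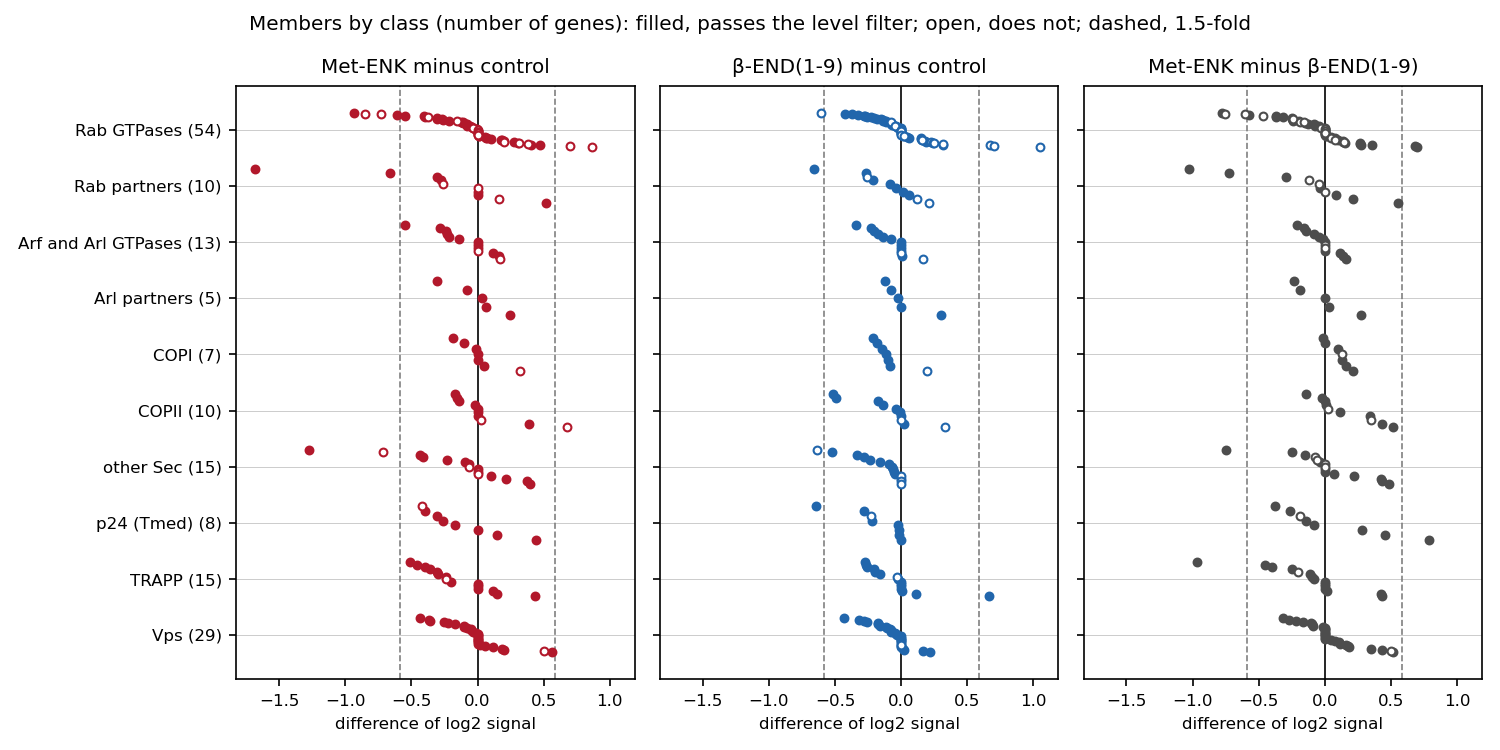
Differences of log2 signal (horizontal axes) of the 166 genes by class, with 1 panel for each comparison and 1 point per gene, filled where the gene passed the level filter and open where it did not. Most points lie inside the dashed 1.5-fold lines, and the filled points outside them are the 9 genes named in the text.

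The upstream sequences of the pair lowest with Met-ENK and of the endosomal Rabs that differed between the peptides are shown so that their start-proximal letters can be compared. Each is the 250 bases before the RefSeq start of the gene in the GRCr8 assembly, 5′ to 3′ on the strand of the gene. Capitals mark matches on either strand to 3 motifs. The GC box is GGGCGG, printed as its reverse complement where it lies on the opposite strand. The E-box is CACGTG, which reads alike on both strands. The last motif is the CCAAT box, named by its letters.
Rabac1 (GRCr8 chr1:89695018-89695267, minus strand): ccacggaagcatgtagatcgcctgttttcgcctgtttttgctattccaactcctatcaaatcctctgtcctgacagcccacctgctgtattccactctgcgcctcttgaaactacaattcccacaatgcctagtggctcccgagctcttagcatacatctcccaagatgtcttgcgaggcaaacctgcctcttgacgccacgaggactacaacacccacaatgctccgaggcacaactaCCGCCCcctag
Sec61b (GRCr8 chr5:66568934-66569183, plus strand): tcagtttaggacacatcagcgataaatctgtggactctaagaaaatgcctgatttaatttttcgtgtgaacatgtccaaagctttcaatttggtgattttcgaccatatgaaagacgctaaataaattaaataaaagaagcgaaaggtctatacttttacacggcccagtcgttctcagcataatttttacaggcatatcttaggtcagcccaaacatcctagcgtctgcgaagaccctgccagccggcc
Rab7a (GRCr8 chr4:122064186-122064435, minus strand): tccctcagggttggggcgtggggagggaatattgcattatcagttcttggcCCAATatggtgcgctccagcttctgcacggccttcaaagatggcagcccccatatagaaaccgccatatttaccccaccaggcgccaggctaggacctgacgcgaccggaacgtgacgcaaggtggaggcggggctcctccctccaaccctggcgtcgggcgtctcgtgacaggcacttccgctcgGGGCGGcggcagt
Rab5a (GRCr8 chr9:6720877-6721126, plus strand): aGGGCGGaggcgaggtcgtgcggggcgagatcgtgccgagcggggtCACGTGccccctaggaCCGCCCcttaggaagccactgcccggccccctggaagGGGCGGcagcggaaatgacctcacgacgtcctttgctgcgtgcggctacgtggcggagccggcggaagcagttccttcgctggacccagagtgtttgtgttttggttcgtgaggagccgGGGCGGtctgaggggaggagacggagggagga
The Rabac1 window holds 1 GC box, which begins 11 bases before the start, and that of Rab7a holds 1 GC box and 1 CCAAT box. The Rab5a window holds 1 E-box and 4 GC boxes, and that of Sec61b has no match to these letters and a GC content of 40.8%, against 52.8% for Rabac1, 62.8% for Rab7a and 68.4% for Rab5a. Such a match is a description of the letters and not a site of binding. For Rab5a the window lies on another chromosome than the probe set identifier names, so window and signal may belong to different loci.

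Windows of this kind were available for 141 of the 166 genes and for 12435 of all named genes. The GC box was present in 94 of the 141 (66.67%), against 46.99% of all named genes and 61.85% of those passing the level filter. The E-box was present in 16 of 141 (11.35%), against 7.01% of all named genes and 8.96% of those passing the filter, and 7 of these 16 were among the 25 Vps windows (Vps11, Vps16, Vps26a, Vps26c, Vps33a, Vps37b and Vps50). CCAAT was present in 48 of 141 (34.04%), against 35.2% of all named genes and 36.53% of those passing the filter. By class it ranged widely, with 7 of the 8 p24 windows, all except that of Tmed7, but 1 of 7 COPI windows and 1 of 7 Rab partner windows. CCGGAAG, the core of the motif of ETS factors, was found in 24 of 141 windows (17.02%), against 11.41% of all named genes and 18.6% of those passing the filter, with 4 of the 9 COPII windows among them (Sec13, Sec23a, Sec24a and Sec31a). TGACGTG, the core of the unfolded protein response element, was found in 6 of 141 (4.26%), against 1.76% of all named genes and 2.4% of those passing the filter, in Arf1, Arf4, Copb2, Sec16a, Sec23a and Trappc2b; matches of different motifs were allowed to overlap. The endoplasmic reticulum stress element, CCAAT followed by CCACG at a fixed distance, was found in 0 of 141 and in 0.12% of all named genes. No test was run on these counts.

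Rab GTPases made up 54 of the genes, and 39 of them passed the filter. With Met-ENK 22 of the 39 (56.4%) were lower than control, 12 higher and 5 equal, beside 45.7% lower among all genes passing the filter. Past 1.5-fold lower were 2 (5.13%, Rab7b and Rab4b), beside 6.02% of all genes. With β-END(1-9) 21 were lower (53.8%, beside 56.1% of all genes), 10 higher and 8 equal, with 0 past 1.5-fold. Medians over all 54 were 0.00 in every comparison. For Met-ENK against control the median was between -0.03 and 0.03 under the other scalings, and for β-END(1-9) it was between -0.04 and 0.07.

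Among Rabs of the step from the endoplasmic reticulum to the Golgi, Rab1a, which acts with TRAPP at the Golgi, had 15.95 with Met-ENK and 16.04 on both other arrays. Its close relative Rab1b had 15.72 with Met-ENK, 15.97 with β-END(1-9) and 15.81 in control. Rab2a, which tethers vesicles at the Golgi, had 13.21 with either peptide and 13.32 in control (-0.11 for each). The widest gap between arrays among these 3 genes was that of Rab1b between the peptides (-0.25). Rab6a, of traffic within the Golgi, differed from control by -0.06 with Met-ENK and -0.14 with β-END(1-9).

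Of the Rabs of recycling, Rab4a, Rab11a and Rab25 were, like Rab4b, lower with Met-ENK than in control, by less than 1.5-fold. Rab4a had 11.45 with Met-ENK, 11.58 with β-END(1-9) and 12.00 in control, so both peptide arrays lay below control (-0.55 and -0.42). Rab11a, of the recycling endosome, had 11.66, 12.02 and 12.05 in that order, with the Met-ENK array apart from the others. Its paralogs did not follow one pattern. Rab11b differed from control by 0.07 with Met-ENK and -0.21 with β-END(1-9), and Rab25, an epithelial Rab of the same branch, by -0.31 and -0.07. Of the early endosome Rabs other than Rab5a, Rab5b and Rab5c differed from control by at most 0.06 with either peptide. Rab21, which traffics integrins, was 0.28 higher than control with Met-ENK and 0.02 higher with β-END(1-9).

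Among Rabs of exocytosis and polarised transport, Rab10, which acts in delivery to the plasma membrane, had a log2 signal of 15.51 with either peptide and 15.44 in control. Rab8a, also of delivery to the surface and to the cilium, differed from control by -0.27 with Met-ENK and 0.05 with β-END(1-9), and its paralog Rab8b had 13.86 on all 3 arrays. Rab13, of tight junction traffic, had 9.28 with Met-ENK, 9.85 with β-END(1-9) and 9.54 in control, with the peptide arrays on opposite sides of control. Rab38, of lysosome-related organelles, had 7.97, 8.16 and 8.27 in that order, and Rab32, which acts with it, had 9.53 on all 3 arrays. Of the Rabs of secretory granules, Rab3d (10.64 on all 3 arrays) and Rab3a passed the level filter, and Rab27a, Rab27b, Rab3b, Rab3c and Rab26 did not.

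Of the 15 Rab genes below the filter, 6 were at least 1.5-fold apart in some comparison, all within the background range. Rab26 had 6.18 with Met-ENK, 6.37 with β-END(1-9) and 5.31 in control (0.86 and 1.05). Rab33a had 3.61 with either peptide and 2.91 in control (0.70 for each), and Rab19 had 4.74, 5.21 and 4.54 on the Met-ENK, β-END(1-9) and control arrays. Rab3b (-0.85 with Met-ENK and -0.61 with β-END(1-9) against control), Rab39a (-0.73 and 0.02) and Rab29 (-0.60 between the peptides) lay in the other direction. Values of this height cannot be told from background by level. The matching share of named genes below the filter, in some comparison, was not counted. Past 1.5-fold upward with Met-ENK against control were 448 of 15037 named genes without the filter and 52 of 7519 with it. Downward the numbers were 633 and 453. For β-END(1-9) against control they were 397 and 42 upward, and 296 and 171 downward. Between the peptides they were 377 and 142 upward with Met-ENK, and 459 and 203 downward.

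**Figure D3:**
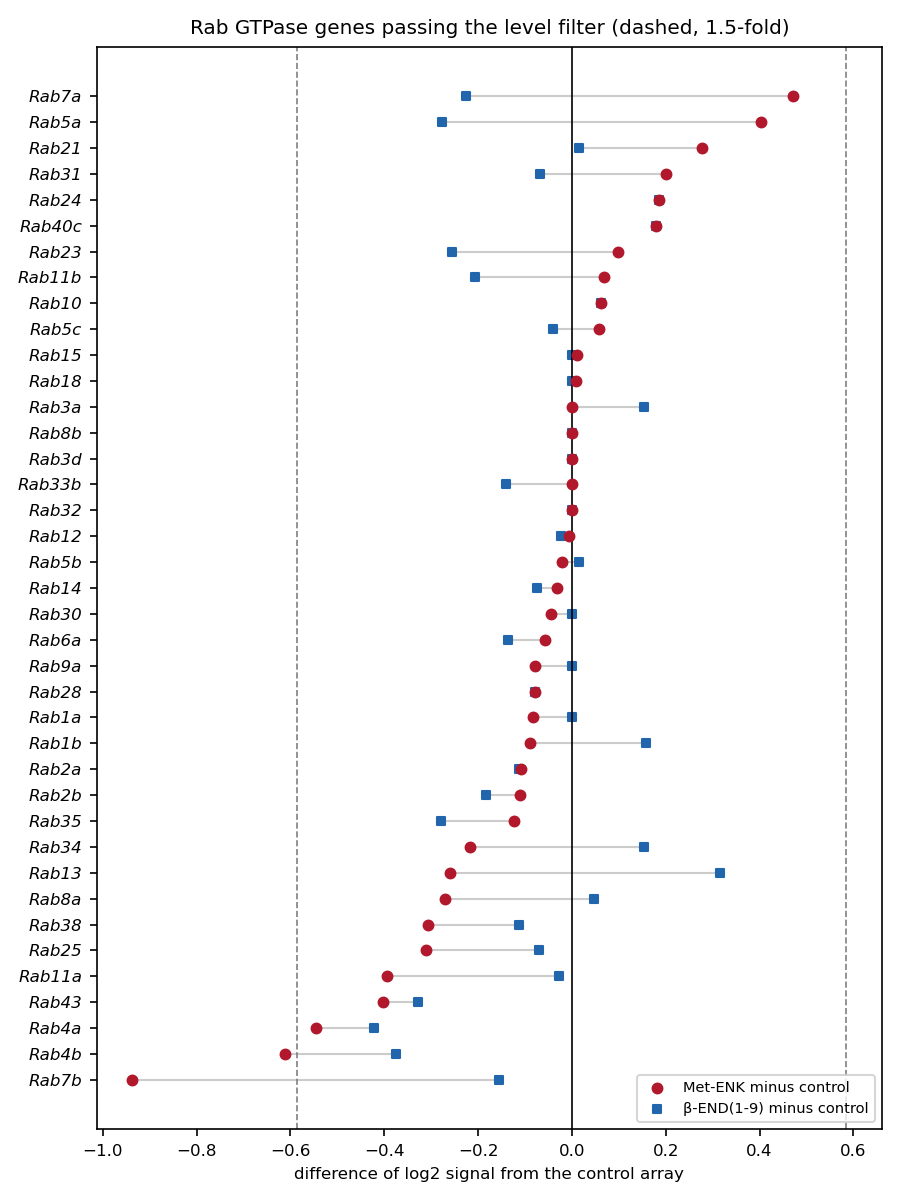
Differences of log2 signal from the control array (horizontal axis) for the 39 Rab GTPase genes that passed the level filter, with Met-ENK as circles and β-END(1-9) as squares, joined by a line for each gene and ordered by the Met-ENK difference. Rab7a and Rab5a have the highest Met-ENK differences (0.47 and 0.40) with β-END(1-9) on the other side of 0, and Rab7b has the lowest (-0.94).

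The Rab partners were the 10 other genes with a Rab symbol, grouped by symbol and not by function, and 7 of them passed the filter. Of the 7, 2 (28.6%) were past 1.5-fold lower with Met-ENK (Rabac1 and Rab5if), beside 6.02% of all genes. Both genes have a short genomic span, and the shares of all genes by span are given below. The α and β subunits of the geranylgeranyl transferase that attaches lipids to Rabs, Rabggta and Rabggtb, differed from control by -0.30 and -0.28 with Met-ENK and by -0.27 and 0.02 with β-END(1-9). Rab3gap2, the non-catalytic subunit of the Rab3 GTPase-activating complex, had 8.97 with Met-ENK, 8.41 with β-END(1-9) and 8.45 in control. It was thus the partner gene with the highest Met-ENK difference from control (0.51), below the threshold. Rab11fip2, an effector of Rab11, differed from control by 0.00 with Met-ENK and -0.21 with β-END(1-9), and Rab3ip, an activator of Rab8, by 0.00 and -0.08.

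Of 13 Arf and Arl GTPase genes, 11 passed the filter and 0 were past 1.5-fold in any comparison. Arf1, the GTPase that recruits COPI and Golgi adaptors, had a log2 signal of 16.34 on all 3 arrays. Of the class II Arfs, Arf4 differed from control by -0.24 with Met-ENK and -0.23 with β-END(1-9), and Arf5 by -0.22 and -0.17. Arf2 differed by -0.29 and -0.21, and Arf3 by 0.16 and 0.00, so the Arfs nearest to Arf1 lay on opposite sides with Met-ENK. Arf6, of the plasma membrane and endosomes, had 14.32 with Met-ENK, 14.18 with β-END(1-9) and 14.32 in control. Arl1, which recruits golgins to the trans-Golgi network, had 10.56, 10.77 and 11.11 in that order, the lowest Met-ENK difference of the class (-0.55). Among 5 partner genes named after Arl proteins, the differences from control ran from -0.30 (Arl6ip1, of endoplasmic reticulum shape) to 0.25 (Arl2bp) with Met-ENK, and from -0.12 (Arl6ip1) to 0.30 (Arl14ep) with β-END(1-9).

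COPI subunits differed little. Of 7 measured genes, 6 passed the filter, and all 6 were below control with β-END(1-9), from -0.22 (Copg2) to -0.08 (Copa), beside 56.1% of all genes passing the filter. The class median for β-END(1-9) against control was -0.12, and between -0.16 and -0.03 under the other scalings, although the number of the 7 genes below control was 5 after quantile normalization instead of 6. With Met-ENK 3 of the 6 were lower, 1 higher and 2 equal, from -0.18 (Copb2) to 0.05 (Copb1), beside 45.7% of all genes lower. Copa, the α subunit, had 12.20 with Met-ENK, 12.22 with β-END(1-9) and 12.30 in control, and Copb2, the β′ subunit, had 13.55 with either peptide and 13.73 in control. Between the peptides the COPI median was 0.13 in favour of Met-ENK, and between 0.09 and 0.14 under the other scalings, with 0 genes past 1.5-fold.

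In the COPII coat, 8 of 10 genes passed the filter, with 0 past 1.5-fold in any comparison. Sec13, of the outer cage, had 11.71 with Met-ENK, 11.37 with β-END(1-9) and 11.87 in control, and Sec24c, which selects cargo, had 12.02, 11.51 and 12.02, so the β-END(1-9) array was the low one for both. Its paralog Sec24b had 10.56, 10.13 and 10.17, with the Met-ENK array high (0.39 above control), and Sec24a had 9.83, 9.85 and 9.83. The Sec24 genes therefore showed 3 different orders of the arrays. The inner coat genes Sec23a and Sec23b differed from control by -0.17 and -0.14 with Met-ENK and by -0.17 and 0.00 with β-END(1-9). Sec31a, of the outer cage, differed by -0.02 with Met-ENK and -0.13 with β-END(1-9), and the scaffold gene Sec16a by at most 0.01. Sec31b, below the filter with signals between 3.29 and 3.97, was 0.68 above control with Met-ENK.

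The p24 family had 8 measured genes, 7 of which passed the filter. With Met-ENK its median was -0.22 against control, and between -0.24 and -0.14 under the other scalings. Tmed2 had 15.01 with Met-ENK, 15.10 with β-END(1-9) and 15.32 in control, and its partner Tmed10 had 12.02, 12.40 and 12.42. These subunits, which form a complex at the Golgi, were both lowest with Met-ENK (-0.31 and -0.40 against control). Tmed5 went the other way, with 13.69 with Met-ENK, 13.23 with β-END(1-9) and 13.25 in control (0.44 for Met-ENK). Tmed9 had 12.93 with Met-ENK and in control and 12.65 with β-END(1-9), so that, as for Tmed1, the β-END(1-9) array was the low one.

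Of the genes named Sec that belong to no coat, 5 encode translocon proteins, and all 5 were below control with β-END(1-9), from -0.52 to -0.06, beside 56.1% of all genes, with 3 of 5 so after quantile normalization. With Met-ENK 4 of them were lower (3 after quantile normalization), beside 45.7% of all genes, with a median of -0.23, between -0.26 and -0.15 under the other scalings. Sec61a1, the main channel subunit, differed from control by -0.06 with either peptide. Sec61g, the γ subunit, had 13.14 with Met-ENK, 13.39 with β-END(1-9) and 13.55 in control (-0.41 and -0.16), the same order of arrays as Sec61b. Sec63, which works with the lumenal chaperone BiP at the channel, had 11.91, 11.43 and 11.52, and so was 0.39 above control with Met-ENK. The small channel subunits and Sec63 thus lay on opposite sides of control. Sec11a, a catalytic subunit of signal peptidase, differed by -0.43 with Met-ENK and -0.28 with β-END(1-9), and Sec11c by -0.09 and -0.05. The SNARE genes Sec22a and Sec22b differed from control by 0.22 and 0.00 with Met-ENK and by 0.00 and -0.07 with β-END(1-9). Sec14l1, of a family of lipid-binding proteins, was 0.38 above control with Met-ENK and 0.04 below it with β-END(1-9).

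TRAPP had 15 measured genes, 14 of which passed the filter. With Met-ENK 8 of the 14 (57.1%) were lower, 3 higher and 3 equal, beside 45.7% lower among all genes passing the filter. The median over 15 was -0.24 against control, between -0.26 and -0.17 under the other scalings. Of the core subunits, Trappc5 had 8.88 with Met-ENK, 9.13 with β-END(1-9) and 9.39 in control, Trappc1 had 9.50, 9.59 and 9.85, and Trappc3 had 11.15, 11.26 and 11.45. These 3 ran in the same order, lowest with Met-ENK and highest in control, as did Trappc14 of a larger TRAPP complex, with 7.34, 7.42 and 7.58. The core subunit Trappc4 was highest with β-END(1-9), as given above, and Trappc6b and Trappc2b had equal signals on all 3 arrays (9.41 and 8.63). Trappc2 and Trappc2l had equal signals with β-END(1-9) and in control and were lower with Met-ENK (-0.45 and -0.40), with all values of Trappc2 within the background range. Among the other subunits of the larger complexes, Trappc10 differed from control by 0.15 with Met-ENK and -0.28 with β-END(1-9), Trappc9 by 0.11 with either, Trappc13 by 0.43 and 0.00, Trappc11 by 0.00 and -0.02, and Trappc8 by -0.20 with either. With β-END(1-9) the TRAPP median was -0.02, and it turned to 0.07 after quantile normalization and 0.01 with the span trend removed.

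**Figure D4:**
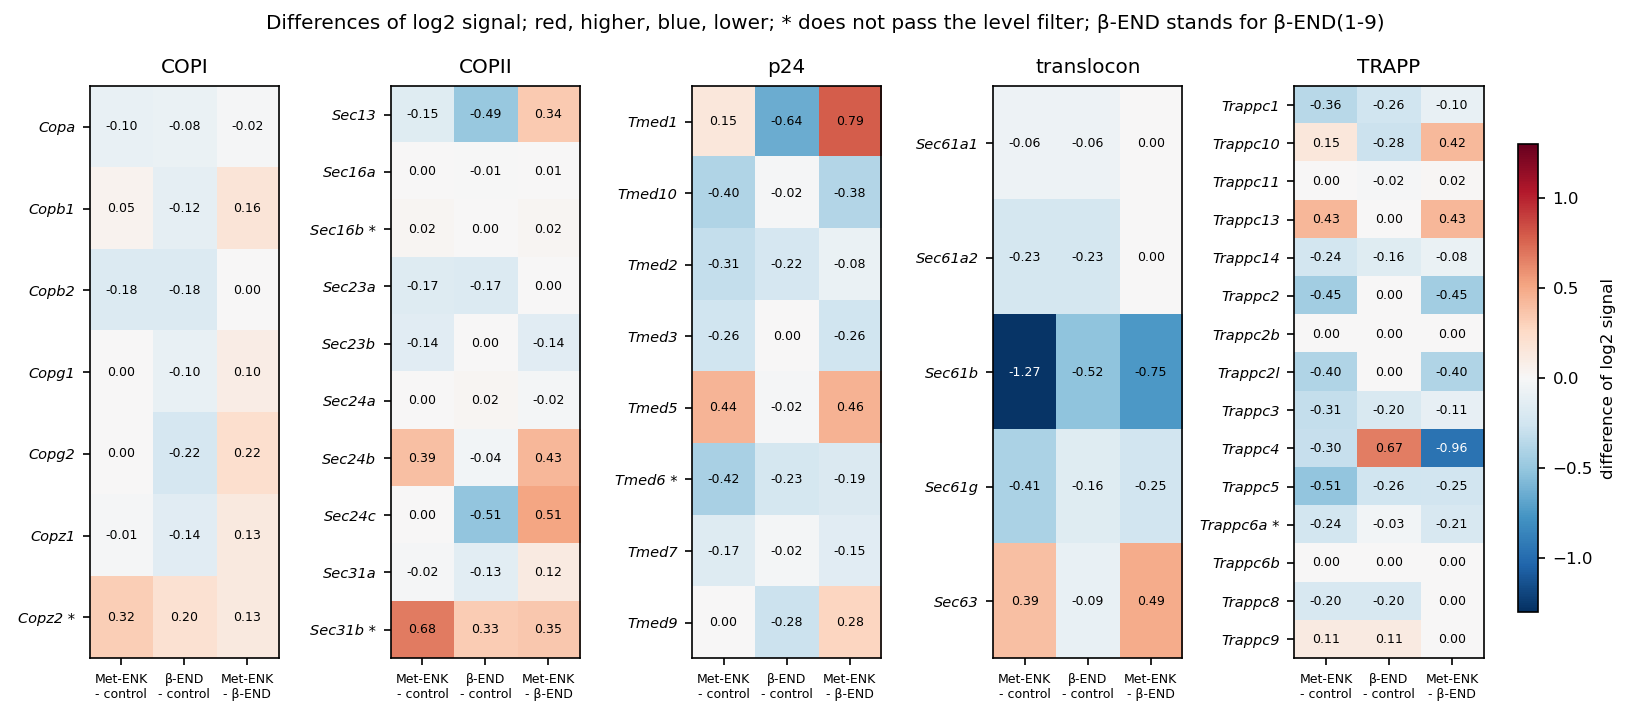
Differences of log2 signal for each measured gene (rows) of COPI, COPII, the p24 family, the translocon and TRAPP, in the 3 comparisons (columns), with red for higher, blue for lower and an asterisk where a gene did not pass the level filter. Sec61b has the deepest blue (-1.27 for Met-ENK against control), and Tmed1 and Trappc4 have opposite colours between the peptides (0.79 and -0.96).

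Vps genes numbered 29, of which 28 passed the filter and 0 were past 1.5-fold in any comparison. Of the 28, 13 were lower with Met-ENK than in control, 6 higher and 9 equal, and 16 were lower with β-END(1-9), 4 higher and 8 equal. The lower shares were 46.4% with Met-ENK and 57.1% with β-END(1-9), near the 45.7% and 56.1% of all genes passing the filter. In retromer, which returns cargo from endosomes, Vps35 had 13.54 on all 3 arrays. Vps29 had 12.53 with Met-ENK, 12.61 with β-END(1-9) and 12.89 in control, and Vps26b had 11.25 with either peptide and 11.51 in control. Vps26a differed from control by 0.12 with Met-ENK and -0.04 with β-END(1-9), so the 4 retromer genes had no common direction. The retriever genes Vps35l and Vps26c differed by at most 0.02 with either peptide.

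In HOPS and CORVET, which tether endosomes and lysosomes, Vps18 had 9.20 with Met-ENK, 8.85 with β-END(1-9) and 8.64 in control. It was the Vps gene with the highest difference from control for both peptides (0.56 and 0.22). Its partners Vps11, Vps16 and Vps39 differed from control by at most 0.16 with either peptide, Vps33a by -0.22 with Met-ENK and 0.00 with β-END(1-9), and Vps33b by 0.00 and -0.11. Of the ESCRT genes named Vps, Vps25 had the lowest Met-ENK difference from control, -0.43 (11.89 with Met-ENK, 12.21 with β-END(1-9) and 12.33 in control), and the ATPase gene Vps4b had 12.45 on all 3 arrays. The 4 GARP and EARP genes, for tethering of vesicles that return from endosomes, were all below control with β-END(1-9), from -0.43 (Vps50) to -0.03 (Vps54), beside 56.1% of all genes, with 2 of 4 so after quantile normalization. Vps50 had 10.59 with Met-ENK and in control and 10.16 with β-END(1-9). Vps13b, a bridge-like lipid transfer protein of the Golgi, had 10.20 with Met-ENK, 9.69 with β-END(1-9) and 10.00 in control. Vps72 carries a Vps symbol but is a subunit of a chromatin remodelling complex, and differed from control by -0.36 with Met-ENK and -0.09 with β-END(1-9).

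Other genes of the same routes, which the symbol rule does not take, were described with 7 lists holding 330 genes, of which 257 were measured and 224 passed the filter. Of the 224, 12 (5.36%) were at least 1.5-fold lower and 0 higher with Met-ENK than in control, beside 6.02% and 0.692% of all genes. For β-END(1-9) 6 were lower (2.68%) and 1 higher (0.446%), beside 2.27% and 0.559%. Between the peptides 4 were higher with Met-ENK (1.79%) and 3 lower (1.34%), beside 1.89% and 2.7%. The lower share between the peptides was thus below the background, and none of the pooled shares lay far above it. After quantile normalization Yipf2 (-0.55) and Chmp3 (-0.56) with Met-ENK and Yipf2 (-0.56) and Zw10 (-0.53) with β-END(1-9) were below 1.5-fold.

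The list of coat partners, cargo receptors and sorting nexins held 6 of the 12 genes lower with Met-ENK, which is 12.8% of its 47 genes passing the filter, beside 6.02% of all genes. The lists were chosen with earlier results of these data known, so this share cannot show an excess over the background. Snx17, a sorting nexin that recycles integrins with retriever, had 8.61 with Met-ENK, 9.57 with β-END(1-9) and 9.71 in control (-1.10 for Met-ENK). Bcap31, which exports membrane proteins from the endoplasmic reticulum, had 11.74, 12.30 and 12.57 (-0.84). The Golgi membrane genes Yipf1 (-0.86), Yipf4 (-0.84) and Yipf2 (-0.62) and the cargo receptor gene Cnih4 (-0.66) were the other 4. Yipf2 had 6.86 with either peptide and 7.49 in control, all within the background range. With β-END(1-9) Tango2 was lower (-0.75), as was Yipf2 (-0.62). The Tango2 signal with β-END(1-9), 6.96, lay within the background range, and its values on the other arrays lay above it.

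Among 35 SNARE genes passing the filter, Use1, of the return route from the Golgi to the endoplasmic reticulum, had 8.59 with Met-ENK, 9.43 with β-END(1-9) and 9.80 in control (-1.21 for Met-ENK). Stx7, a SNARE of late endosomes, was 0.60 higher with Met-ENK than with β-END(1-9). Of 33 Rab regulators, Rin2, which activates Rab5, was 0.72 higher with Met-ENK than with β-END(1-9) (11.86 with Met-ENK, 11.14 with β-END(1-9) and 11.44 in control), the same order of arrays as Rab5a. Tbc1d7 was lower with Met-ENK than in control (-0.71), and Rabgap1l was higher with β-END(1-9) (0.80). The 35 clathrin and adaptor genes had 1 past 1.5-fold lower with Met-ENK, Ap3m1 of the AP-3 adaptor (-0.89), and the endocytic adaptor gene Epn3 was higher with Met-ENK than with β-END(1-9) (0.61). The 23 Arf regulators had 0 past 1.5-fold in any comparison. Of 33 tethers and golgins, Golga7 was lower with Met-ENK (-0.75), and the giantin gene Golgb1 (-0.80), Eipr1 (-0.66) and Zw10 (-0.61) were lower with β-END(1-9), with all 3 values of Eipr1 (6.86, 6.78 and 7.44) within the background range. The 18 ESCRT genes had Mvb12a (-0.75) and Chmp3 (-0.63) lower with Met-ENK and Chmp5 (-0.80) lower with β-END(1-9). For Mvb12a the Met-ENK and β-END(1-9) signals (6.89 and 7.30) lay within the background range and the control signal (7.64) just above it.

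The genes lower with Met-ENK tended to have a short genomic span, the distance from start to end of the gene in GRCr8. Rabac1 spans 3.13 kb, Sec61b 8.21 kb, Rab5if 10.0 kb and Rab4b 11.4 kb, while Rab7b spans 26.4 kb. When all named genes were cut into 5 groups of equal size by span, the 14 traffic genes passing the filter in the shortest group had a median Met-ENK difference from control of -0.22, and the 27 in the next group had -0.26. In the middle group it was -0.06 (35 genes), and it was 0.00 in both longer groups (36 and 24 genes). For all named genes the medians from the shortest to the longest group were -0.11, -0.06, 0.00, 0.00 and 0.00. Of all named genes passing the filter, 16.6%, 9.41%, 5.82%, 2.90% and 1.69% were at least 1.5-fold lower with Met-ENK, in that order. For the traffic genes the shares were 7.14%, 11.1%, 0%, 2.78% and 0%. Rabac1 lay in the shortest group and Rab5if in the next. The rank correlation of span with the Met-ENK difference was 0.38 over the 136 genes and 0.27 over 7516 genes, as a description of genes on the same arrays. For β-END(1-9) against control it was -0.02 over the 136 genes. Trappc5, also low with Met-ENK, spans 4.33 kb, and Sec63 (69.0 kb), Sec24b (70.1 kb) and Rab3gap2 (73.8 kb), which lay above control, are long. Vps18 (10.9 kb) and Tmed5 (11.1 kb) are short and lay above control. With the trend along span removed, Rabac1 stood at -1.67, Sec61b at -1.25 and the TRAPP median at -0.22. The 399 positive control probe sets of the array had a median Met-ENK difference from control of -0.23, and -0.12 for β-END(1-9), and the 1153 negative control probe sets had 0.09 and 0.03. The part of span and of these control probes in the differences of the traffic genes was not tested.

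**Figure D5:**
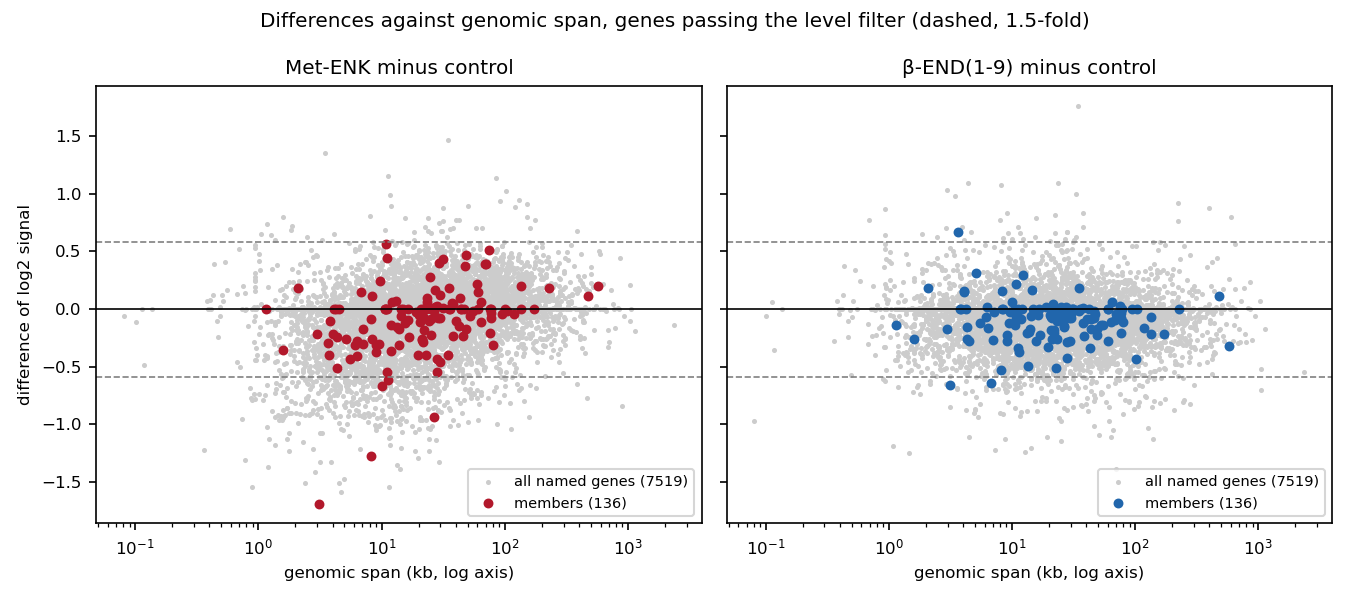
Difference of log2 signal from control (vertical axis) against genomic span in kb (horizontal axis, log scale) for genes passing the level filter, with the 136 traffic genes in colour over all named genes in grey, for Met-ENK on the left and β-END(1-9) on the right. Of the 7519 named genes counted in the legend, the 7516 with a span are drawn. The Met-ENK points lie lower at short spans (rank correlation 0.38 over the 136 genes), and the β-END(1-9) points show no such slope (-0.02).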

How the data were processed

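RNA of 3 FRSK cultures was measured on 1 whole-transcript array each. The authors deposited log2 signals, 1 per probe set. RMA and 2 Affymetrix programs, Transcriptome Analysis Console and Expression Console, are listed in the submitters' processing notes, without versions or a genome build. The groups follow the sample titles. Of 24834 probe sets, 1646 are controls. The platform annotation names 1 symbol for 15049 of the 23188 others, several for 0 and none for 8139. All 166 members were found by Entrez identifier in RefSeq (GRCr8), with 0 symbols changed, and 0 of them had more than 1 probe set. Whether each probe set lies at the location of its RefSeq gene was not checked, and for Rab5a the chromosomes differ. Where a gene had several probe sets (10 genes), that of highest mean signal was kept. From the deposited log2 signals, differences between arrays were computed in Python 3.11.15 with pandas 2.3.3, numpy 2.4.6 and statsmodels 0.14.6 (lowess fraction 0.3 for the span trend). Scripts were checked on simulated arrays. No test was run, because each group has 1 array, and precision is limited by the number of arrays.

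The genes named are those passing the level filter and at least 1.5-fold apart in any comparison, the 2 of highest level and the extremes of each class, the genes that complete a complex and those next to the threshold. A few further Rab, Arf, Sec and Vps members were named for their role after their values were seen. Members, lists and rules were chosen with earlier results of these data known. Alternatives were quantile normalization, median centring, removal of the span trend, other level filters, a 2-fold threshold and the mean. Protein sequences were not used here. Promoter sequences are from RefSeq.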

Additional observations from a re-analysis of the deposited data

Results flagged for a closer look

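For 5 of the 136 genes the peptide arrays were at least 1.5-fold apart and lay on opposite sides of the control array. The share of all named genes meeting both conditions was not counted. For the fold condition alone, 2.21% of the 136 were higher with Met-ENK and 3.68% lower, beside 1.89% and 2.7% of all genes passing the filter. The differences, Met-ENK minus β-END(1-9), were 0.68 for Rab5a, 0.70 for Rab7a, 0.79 for Tmed1, -0.73 for Rab5if and -0.96 for Trappc4. Against control, Rab5if stood at -0.66 for Met-ENK and 0.06 for β-END(1-9), and Tmed1 at 0.15 for Met-ENK and -0.64 for β-END(1-9). These differences were not tested, since each condition has 1 array and both peptides are set against the same control array.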

How the results depend on the processing

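No paired analysis was possible because each group has 1 array, and no array could be left out for the same reason. For genes at least 1.5-fold lower with Met-ENK than in control, the count was 5, and it was 8 without the level filter and 2 at a 2-fold threshold. For higher genes it was 0, and 2 after quantile normalization and 3 without the filter. With β-END(1-9) against control the lower count was 2, and 1 after quantile normalization, 4 without the filter and 0 at 2-fold. The higher count was 1, and 4 without the filter and 0 at 2-fold. Between the peptides 3 were higher with Met-ENK and 5 lower, and at 2-fold 0 and 1. With quantile normalization the share lower among genes past 1.5-fold was 66.7% instead of 100% for Met-ENK and 1 of 2 genes instead of 66.7% for β-END(1-9), both against control. The 3 medians over the 166 genes moved by less than 0.1 under every alternative run. The numbers of the 166 genes below control did change with the scaling, as given above. Of the 16 differences past 1.5-fold, 16 stayed past it with median centring, 16 with the span trend removed and 14 with quantile normalization, where Rab4b with Met-ENK (-0.52) and Rabac1 with β-END(1-9) (-0.57) did not. Signals within the background range, up to 7.57, limit what can be read for Rab7b and Tmed1, for the 8 genes that passed the filter but lay within it on all arrays (Trappc2 among them) and for the 30 genes below the filter. The same limit holds for Yipf2, Eipr1, Tango2 and Mvb12a among the listed genes that the symbol rule does not take.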
